A study of Mus musculus with 2 samples.

Results

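Of the 31053 genes in the deposited matrices, 9 make up the interferon-γ axis described below: Ifng itself, the transcription factors Tbx21, Eomes, Runx3 and Stat4, the IL-12 receptor chains Il12rb1 and Il12rb2, and the receptor chains Ifngr1 and Ifngr2. They are picked by name. The material was kidney cells of MRL-lpr mice, a strain that carries the lpr mutation of Fas and develops lupus-like nephritis with age. The labels give the age only as old or young. Each age is 1 single-cell RNA-seq library (10x Chromium 3′ v3.1) made from the pooled kidneys of several mice, and in the study the young mice stand for the control or mildly diseased state. Before sequencing, leukocytes were concentrated on a density gradient, a pan-ILC kit was used to enrich innate lymphoid cells, and live cells were sorted. T cells, myeloid cells and tubule cells are therefore those that were left after enrichment, and their shares are not their shares in the kidney.

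After filtering, 11429 young and 10232 old cells remained, with medians of 7881 and 6933 UMIs (unique molecular identifiers, counted transcripts) per cell. With 1 library per age there is no measure of variation between mice, so no p-value is given. All intervals are exact 95% intervals that cover counting error only. Levels are in CPM (counts per 1000000), which puts a gene's UMI sum within a class over the UMI total of the same class. Ratios of old to young CPM are on the log2 scale, and a gene is called past 2-fold where the ratio is at least 1 in size and its interval leaves out 0.

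Cells were put into 7 classes by UMIs of marker genes, none of them a member. The CD4, CD8 and double-negative classes needed at least 2 UMIs of the CD3 chains, and double-negative cells had none of Cd4, Cd8a, Cd8b1 and Trdc. NK or ILC1 cells had no CD3 UMI and at least 2 UMIs of Ncr1, Klrb1c and Klre1, and ILC2 cells lacked CD3 UMIs and showed 2 or more of Gata3, Il2ra, Il1rl1 and Il17rb. Young and old cells numbered 117 and 1139 for CD4, 160 and 1132 for CD8, 357 and 1587 for double-negative, 200 and 214 for NK or ILC1, 1263 and 299 for ILC2, 288 and 454 for myeloid, and 6145 and 3427 for tubule cells.

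Several features of the libraries bear on every result. The young double-negative gate was mixed. In it, 182 of 357 cells (51.0%) carried UMIs of at least 2 of the ILC2 genes and 37.8% had a UMI of Trac, the constant region of the T cell receptor α chain, against 2.39% and 85.7% of old double-negative cells. The double-negative level of each member is therefore also given for cells with a Trac UMI and fewer than 2 ILC2 genes, which left 118 young and 1339 old cells, while shares of cells and of UMIs are for the whole gate. A depth limit also applies to the T gates, since 57.3% of young and 35.6% of old CD4 cells were placed by a single Cd4 UMI. Lastly, the methods name female mice unless specified, yet 50.8% of young and 40.6% of old cells had UMIs of Y-linked genes without Xist, and 14.6% and 29.1% had Xist without Y-linked UMIs. Ratios within these sets of cells are given beside some of the results. Both libraries shared 41 barcodes, and leaving them out moved no ratio beyond its interval.

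Interferon-γ is the signature cytokine of type 1 immunity. Interleukin 12, sensed by a receptor of the Il12rb1 and Il12rb2 chains, acts through STAT4, and together with T-bet (encoded by Tbx21), Eomesodermin (Eomes) and RUNX3 it promotes transcription of Ifng in T cells and NK cells. The secreted cytokine binds a receptor made of a ligand-binding chain, Ifngr1, and a signaling chain, Ifngr2, which acts through JAK kinases in almost all nucleated cells. T helper 1 cells are known to keep Ifngr2 low. In MRL-lpr mice the loss of functional Fas lets T cells that carry neither coreceptor accumulate.

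The members lie on 8 chromosomes in the GRCm38 (mm10) assembly, with Ifng at chr10:118441046-118445892 and Ifngr1 at chr10:19591949-19610229, both on the plus strand. Ifngr2 is at chr16:91547072-91565623, Eomes at chr9:118478212-118486132 and Il12rb2 at chr6:67291318-67376188 on the minus strand. Of the members, 3 overlap a gene on the other strand that is also in the matrices, and how strand was used in counting is not given in the sources used here. For Eomes this gene, Gm33460, had 15 UMIs against 3671 of Eomes in old double-negative cells, and for Runx3 the gene Gm16224 had 5 UMIs or fewer in every class. For Il12rb2 it is Serbp1, which had 4766 UMIs in young ILC2 cells, where Il12rb2 had 0.

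The 250 bases before the transcription start, from RefSeq on GRCm38.p6, were searched on both strands for a T-box half-site (GTGTGA), a RUNX motif (TGTGGT) and a STAT motif (TTCNNNGAA). Sequences were listed for 8 of the 9 members, and Il12rb1 was the other. A STAT motif occurred before Ifng and Il12rb2, both known targets of STAT factors, and these 2 windows are shown because they are the only ones of the members with that motif. The capitals mark the STAT motif in both and, in Il12rb2, also a T-box half-site read on the other strand (TCACAC).
Ifng, chr10:118440796-118441045, plus strand: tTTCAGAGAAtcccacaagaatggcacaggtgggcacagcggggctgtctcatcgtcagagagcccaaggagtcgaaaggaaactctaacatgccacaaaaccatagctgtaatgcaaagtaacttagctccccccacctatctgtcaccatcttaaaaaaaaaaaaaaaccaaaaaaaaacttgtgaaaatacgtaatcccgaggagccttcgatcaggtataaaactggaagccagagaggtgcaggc
Il12rb2, chr6:67376189-67376438, minus strand: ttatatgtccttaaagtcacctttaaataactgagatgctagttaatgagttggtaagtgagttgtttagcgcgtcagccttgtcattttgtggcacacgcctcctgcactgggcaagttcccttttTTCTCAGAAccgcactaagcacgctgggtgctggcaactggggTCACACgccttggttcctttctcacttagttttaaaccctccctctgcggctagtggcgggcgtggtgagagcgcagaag
The STAT motif began 249 bases before the start of Ifng and 123 bases before that of Il12rb2, and the half-site 80 bases before. Of all 32851 windows of this length, 7.02% held the STAT motif, 12.3% the T-box half-site, and 4614 windows held the RUNX motif. RUNX motifs were found among the members only before the upstream start of Runx3, 134 and 126 bases away. A match describes letters and not binding.

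Ifng was a transcript of T and NK cells in both libraries, and its level in CD4 and CD8 cells was higher in old mice. In CD4 cells the level was 152 CPM (124 to 184) in the young and 427 CPM (412 to 443) in the old library, a log2 ratio of 1.50 (1.21 to 1.79). CD8 cells stood at 312 CPM (277 to 351) and 558 CPM (541 to 574), with a ratio of 0.84 (0.66 to 1.01) that was short of 2-fold. In NK or ILC1 cells the levels of 296 CPM (263 to 332) and 322 CPM (292 to 353) had overlapping intervals. In the young library CD8 and NK or ILC1 cells came first and were not separated by counting error, then CD4, then double-negative cells of the whole gate. Among cells with a Trac UMI and fewer than 2 ILC2 genes, young CD4 cells had 186 CPM (150.1 to 228). Young double-negative cells then had 209 CPM (173 to 251), with overlapping intervals, so their place below CD4 was not kept. The old order was CD8, CD4, NK or ILC1 and double-negative cells, each separated from the next by counting error. That error leaves out variation between cells. The shares of old CD4 and old NK or ILC1 cells with an Ifng UMI, given below at 1 depth, had overlapping intervals.

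In the whole double-negative gate Ifng was at 99.7 CPM (85.8 to 115) in young and 205 CPM (195 to 216) in old cells, a ratio of 1.04 (0.82 to 1.27). With the Trac requirement it was at 209 CPM (173 to 251) and 203 CPM (192 to 214), a ratio of -0.05 (-0.32 to 0.24). The difference was thus present in the mixed gate and absent with the Trac requirement. Within the gate, the 182 young cells with at least 2 ILC2 genes carried Ifng at 20.1 CPM (12.4 to 30.7). The 38 such old cells carried it at 259 CPM (197 to 334). The reason for the difference in the mixed gate was not tested. The same requirement left the CD4 ratio at 1.22 (0.92 to 1.53) and the CD8 ratio at 0.69 (0.51 to 0.88).

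ILC2 cells had very little Ifng, at 5.10 CPM (3.55 to 7.09) in young and 4.89 CPM (2.11 to 9.64) in old mice. A single young ILC2 cell held 22 of the 35 UMIs. Myeloid cells had 0 UMIs in the young library, where 3 counts would give 1.40 CPM, and 2.45 CPM (1.34 to 4.11) in the old. Tubule cells, which are not known to make the cytokine, were at 0.198 CPM (0.124 to 0.300) and 1.20 CPM (0.950 to 1.50). In the same tubule cells Cd3e was at 0.315 and 1.95 CPM and Trac at 5.78 and 14.8 CPM, so T cell transcripts were higher in old tubule cells as well. Their part in the low Ifng levels outside lymphocytes was not tested.

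More old than young CD4 cells carried an Ifng UMI. Cells were thinned to 1000 UMIs each to put them at 1 depth. The share of CD4 cells with an Ifng UMI was then 16.2% (10.1 to 24.2) in young and 26.8% (24.3 to 29.5) in old mice, against 32.5% and 56.8% before thinning at medians of 4821 and 5172 UMIs. The thinned shares were 25.6% (19.1 to 33.1) and 34.1% (31.3 to 37.0) for CD8 and 24.6% (18.8 to 31.2) and 26.3% (20.5 to 32.8) for NK or ILC1 cells, each pair with overlapping intervals. Tubule cells gave 0.0166% and 0.294%, from medians of 15180.0 and 15771 UMIs. Ifng was unevenly spread. The 16 young and 113 old CD8 cells with the most Ifng UMIs, 10% of the class, held 51.0% and 48.5% of its Ifng, with up to 22 and 69 UMIs in a cell. In old double-negative cells the highest 159 cells held 65.2%.

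The cells that carried the Ifng UMIs differed between the libraries. Of 1510 young UMIs, 19.3% lay in NK or ILC1, 18.9% in CD8, 12.3% in double-negative and 6.75% in CD4 cells, while 26.0% lay in cells that met no gate. Of 11071 old UMIs, 40.8% lay in CD8, 25.8% in CD4, 13.0% in double-negative and 3.91% in NK or ILC1 cells. These shares follow the number of cells in each class, which the enrichment and the cells loaded also set. The stacked bars show them beside those of Eomes and Tbx21.

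**Figure D1:**
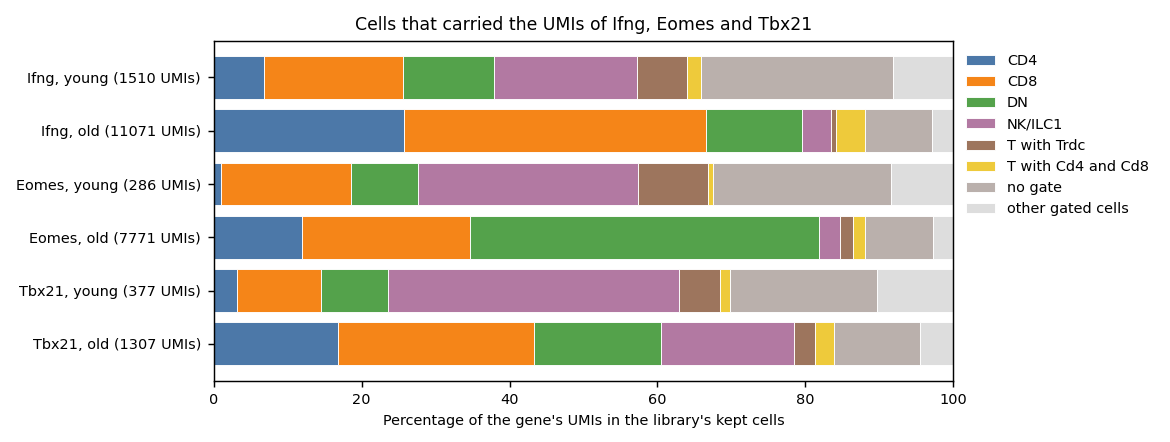
Percentage of the UMIs of Ifng, Eomes and Tbx21 (x axis) found in each class of cells, 1 bar per gene and library; colors mark the classes. NK or ILC1 cells held 39.3% of young Tbx21 and 18.0% of old Tbx21, and double-negative cells held 47.2% of old Eomes against 9.09% of young Eomes.

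Eomes, a T-box factor of effector and memory CD8 T cells and NK cells, was higher in all 3 T classes of old mice, and the class with the highest level changed from NK or ILC1 to double-negative cells. In double-negative cells it was at 13.9 CPM (9.10 to 20.4) in young and 522 CPM (506 to 539) in old mice, a ratio of 5.23 (4.68 to 5.84). With the Trac requirement the levels were 26.6 CPM (14.9 to 43.9) and 550.2 CPM (532 to 569), a ratio of 4.37 (3.65 to 5.21). In the whole gate Eomes was also higher in old cells of either sex-linked set, with ratios of 4.31 (3.65 to 5.05) in Y-linked and 6.49 (5.13 to 8.37) in Xist cells.

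In CD4 cells Eomes was at 4.46 CPM (0.919 to 13.0), which is 3 UMIs, in young mice and at 139.6 CPM (131 to 149) in old mice, a ratio of 4.97 (3.42 to 7.25). CD8 cells had 54.6 CPM (40.5 to 72.0) and 217 CPM (207 to 228), a ratio of 1.99 (1.59 to 2.43). NK or ILC1 cells stood at 86.0 CPM (68.7 to 106) and 168 CPM (147 to 191), a ratio of 0.96 that lay just under 2-fold, with 1.13 in Y-linked and 0.53 in Xist cells and 1.39 in cells with at least 5000 UMIs. At 1000 UMIs per cell, 36.5% (34.1 to 38.9) of old double-negative cells had an Eomes UMI, against 17.1% of old CD8, 14.8% of old NK or ILC1 and 9.65% of old CD4 cells. In the old library the highest 10% of cells held 39.7% of the Eomes UMIs of double-negative and 73.0% of those of CD4 cells. ILC2 cells had 0 Eomes UMIs in the young and 1 in the old library.

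Tbx21, which encodes T-bet, did not follow Eomes. NK or ILC1 cells had the highest level in both libraries, at 149.8 CPM (127 to 176) in young and 175 CPM (153 to 198) in old mice. CD8 cells were at 47.0 CPM (34.0 to 63.2) and 42.9 CPM (38.5 to 47.6). CD4 cells were at 17.8 CPM (9.21 to 31.1) and 32.9 CPM (28.7 to 37.5), and double-negative cells at 18.2 CPM (12.6 to 25.5) and 32.0 CPM (28.0 to 36.5). No class was past 2-fold for Tbx21, and with the Trac requirement the double-negative levels were 30.2 and 32.5 CPM. In cells with at least 5000 UMIs, however, the CD4 ratio was 2.75 (0.87 to 5.81) and the double-negative ratio 1.59 (0.64 to 2.70), and in Xist double-negative cells it was 1.58 (0.41 to 3.05), against 0.28 in Y-linked ones. The NK or ILC1 ratio was -0.11 in Y-linked and 0.89 in Xist cells. ILC2 cells had 4 UMIs in each library.

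Cells with an Eomes UMI were not those with more Ifng in old double-negative cells. At 2000 UMIs per cell, Ifng was found in 17.5% (14.8 to 20.5) of 719 old double-negative cells with Eomes and no Tbx21 UMI and in 24.7% (21.3 to 28.3) of 611 cells with neither. In old CD8 cells the shares were 49.1% (43.6 to 54.6) and 50.8% (47.0 to 54.6). In old CD4 cells they were 48.2% (40.3 to 56.1) of 164 cells and 36.5% (33.3 to 39.8) of 874. Old CD4 cells with Tbx21 alone gave 54.2% (40.8 to 67.3) of 59 cells. The CD4 and double-negative shares thus lay on opposite sides of those of cells with neither factor. At 1000 UMIs the pairs became 27.9% and 27.0% for CD4 and 12.3% and 14.2% for double-negative cells, with overlapping intervals, so both gaps depend on the depth kept. In young mice few T cells had a UMI of either factor. Ifng was found in 58.8% (32.9 to 81.6) of the 17 young double-negative cells with Tbx21 alone and in 9.03% (6.13 to 12.7) of the 321 with neither, a gate that also held cells with ILC2 genes. In old double-negative cells the share with Tbx21 alone, 24.6% (14.1 to 37.8), lay at that of cells with neither at 2000 UMIs. At 1000 UMIs these shares were 22.2% (10.1 to 39.2) and 14.2% (12.1 to 16.6). Without thinning they were 53.3% (41.4 to 64.9) and 31.1% (27.0 to 35.5), so this comparison also depends on the depth kept.

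**Figure D2:**
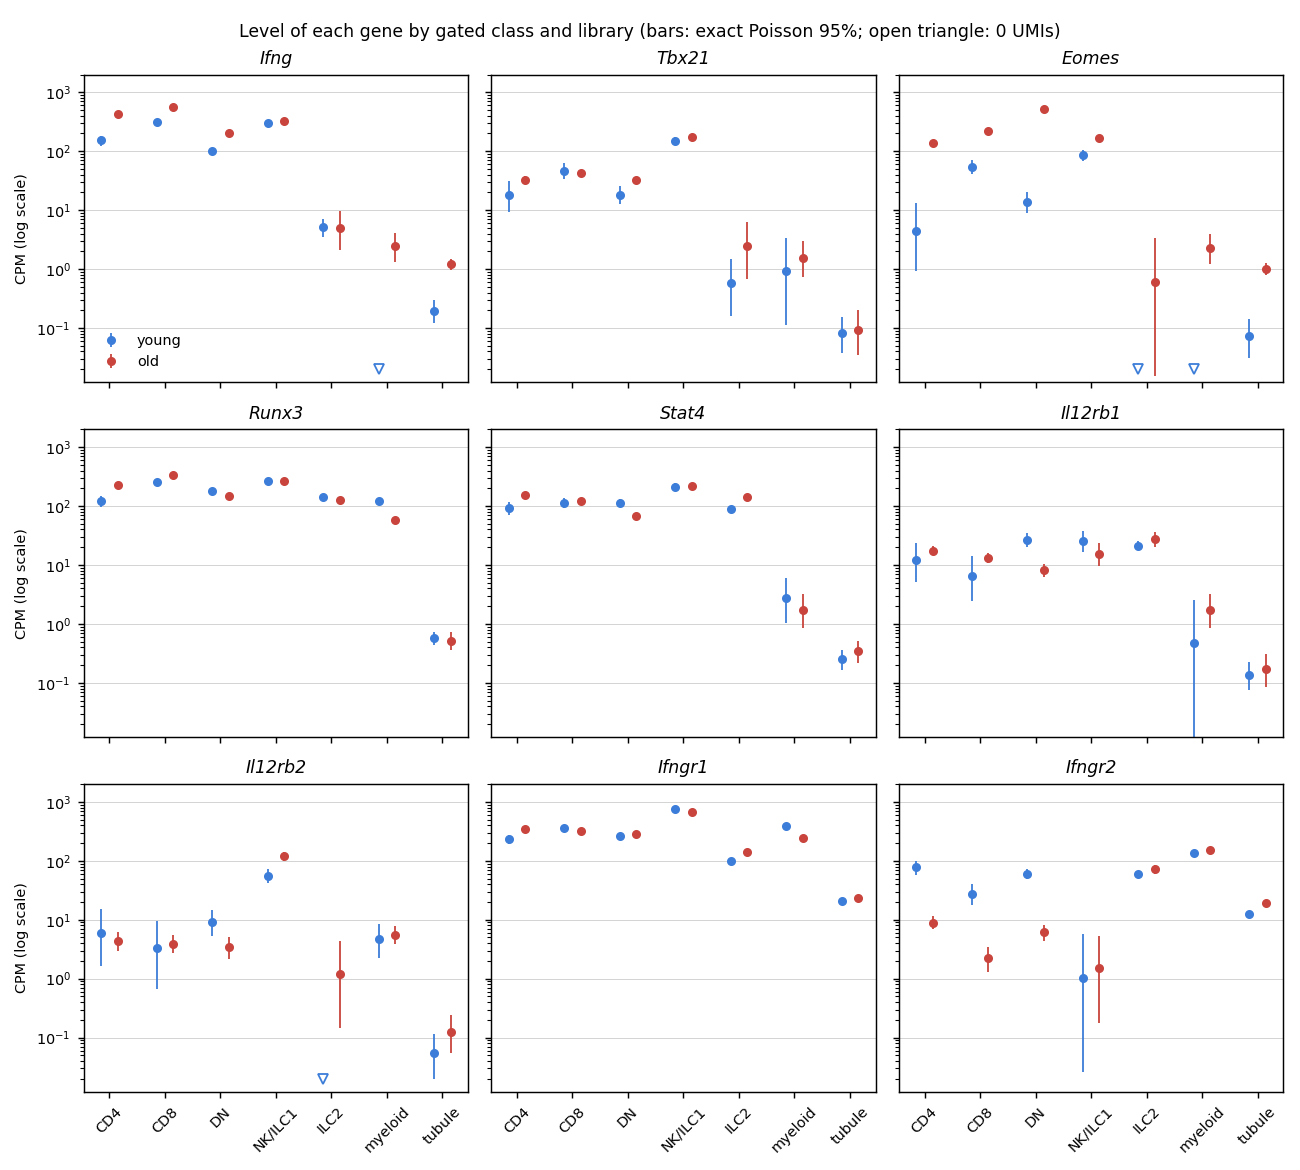
CPM on a log scale (y axis) of each of the 9 genes in the 7 classes (x axis), young in blue and old in red, with exact Poisson 95% intervals; open triangles mark 0 UMIs. Ifng is high in T and NK or ILC1 cells and at 5.10 CPM or less elsewhere, old Eomes peaks at 522 CPM in double-negative cells, and Ifngr2 is lower in old than young T cells only.

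Runx3, the factor of CD8 T cell and NK cell identity, was present in every leukocyte class. It was highest in CD8 and NK or ILC1 cells, at 257 CPM (225 to 292) and 262 CPM (231 to 296) in young mice and 335 CPM (323 to 348) and 267 CPM (241 to 297) in old mice. CD4 cells stood at 120.4 CPM (95.6 to 149.6) and 229.8 CPM (218 to 242), a ratio of 0.93 (0.61 to 1.27). Double-negative cells had 179 and 146 CPM, a ratio of -0.30 (-0.47 to -0.11), and 177 and 146 CPM with the Trac requirement. Myeloid cells also had less in old mice, with 123 CPM (109 to 139) in young and 58.1 CPM (52.0 to 64.6) in old cells, a ratio of -1.09 (-1.32 to -0.85). This was the only myeloid member past 2-fold, where 8.23% of the 8408 genes with at least 50 UMIs were. Within cells with Y-linked UMIs the myeloid ratio was -0.85.

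Stat4, the signal transducer of IL-12, was highest in NK or ILC1 cells at 214 CPM (186 to 244) and 219 CPM (195 to 246). ILC2 cells also carried it, at 90.1 CPM (83.1 to 97.4) in young and 143 CPM (125 to 163) in old mice. In CD4 cells the old level of 152 CPM (143 to 162) was above the young one of 92.1 CPM (70.6 to 118), with ratios of 1.07 in Y-linked and 0.34 in Xist cells. Double-negative cells had less in old mice, 67.2 CPM (61.2 to 73.5) against 114 CPM (98.8 to 129.9), and with the Trac requirement 64.1 against 140.1 CPM, a ratio of -1.13 (-1.48 to -0.76). Stat4 thus differed in opposite directions in CD4 and double-negative cells.

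The IL-12 receptor chains were sparse in T cells. Il12rb2, the chain that sets IL-12 responsiveness, was highest in NK or ILC1 cells, at 55.7 CPM (41.9 to 72.5) in young and 119 CPM (101 to 139) in old mice, a ratio of 1.09 (0.64 to 1.56). It was the 1 member past 2-fold in this class, where 5.65% of 5576 genes were. In CD4 and CD8 cells of either library it had between 3.28 and 5.94 CPM, from 3 to 32 UMIs. Old double-negative cells had 3.41 CPM (2.19 to 5.08) against 9.11 CPM (5.31 to 14.6) in young ones, a ratio of -1.42, and -2.87 (-4.00 to -1.68) with the Trac requirement, from 12 young and 18 old UMIs. Within Xist cells of the whole gate the ratio was -0.32 (-3.48 to 5.24), an interval too wide to give a direction. Young ILC2 cells had 0 Il12rb2 UMIs, where 3 counts would give 0.437 CPM.

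Il12rb1, the chain shared with the IL-23 receptor, was carried by ILC2 cells too, at 21.3 CPM (18.0 to 25.0) in young and 27.5 CPM (20.1 to 36.8) in old mice. NK or ILC1 cells had 25.3 CPM (16.4 to 37.4) and 15.6 CPM (9.66 to 23.8). The young levels of these 2 classes were not separated by counting error. Young ILC2 cells held 40.3% of all young Il12rb1 UMIs, a share that also follows their number, 1263 cells against 200 NK or ILC1 cells. CD4 cells stood at 11.9 CPM (5.13 to 23.4) and 17.5 CPM (14.5 to 21.0). Double-negative cells had 26.8 CPM (19.9 to 35.3) and 8.11 CPM (6.14 to 10.5), a ratio of -1.72 (-2.30 to -1.15). With the Trac requirement these became 14.2 and 7.28 CPM, a ratio of -0.96 (-2.06 to 0.33). At 2000 UMIs per cell, 4 of 194 young and 2 of 208 old NK or ILC1 cells showed UMIs of both chains. Of the other classes, they were found together in 1 old double-negative and 1 old ILC2 cell, which says little at this depth.

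Ifngr1, the ligand-binding chain, was past 2-fold in no class. NK or ILC1 cells had the highest level, at 753 CPM (700.0 to 809) in young and 660.5 CPM (618 to 705) in old mice. Myeloid cells had 389 CPM (363 to 416) and 239.7 CPM (227 to 253), a ratio of -0.70 (-0.82 to -0.57). CD4 cells had 230.3 CPM (195 to 269.6) and 342 CPM (328 to 356), a ratio of 0.57, which within cells with Xist alone was -0.08 (-0.59 to 0.49). CD8 cells were at 360.4 and 319 CPM, with ratios on opposite sides in Y-linked cells, 0.26 (0.04 to 0.49), and Xist cells, -0.68 (-1.16 to -0.17). Double-negative cells were at 263 and 285 CPM, and with the Trac requirement at 378 and 282 CPM, a ratio of -0.42 (-0.63 to -0.21). ILC2 cells stood at 101 and 139 CPM and tubule cells at 20.9 and 23.8 CPM.

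Ifngr2, the signaling chain, was lower in old T cells of all 3 classes and not in the other cells. CD4 cells had 77.3 CPM (57.7 to 101) in young and 8.97 CPM (6.84 to 11.5) in old mice, a ratio of -3.11 (-3.67 to -2.54). CD8 cells had 27.3 CPM (17.7 to 40.3) and 2.22 CPM (1.32 to 3.51), a ratio of -3.62 (-4.58 to -2.69). Double-negative cells had 60.0 CPM (49.4 to 72.2) and 6.12 CPM (4.43 to 8.24), a ratio of -3.29 (-3.84 to -2.77), and with the Trac requirement 35.5 CPM (21.7 to 54.8) and 4.04 CPM (2.62 to 5.97). In the young double-negative gate the cells with at least 2 ILC2 genes carried 77.5 CPM (61.6 to 96.4). The 3 ratios kept their side within Y-linked cells, at -2.90, -4.13 and -2.33, and within Xist cells, at -4.59, -3.43 and -4.53.

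In no class outside the T cells was Ifngr2 past 2-fold, though tubule cells had more of it in old mice. Myeloid cells were at 137 CPM (122 to 154) and 154 CPM (144 to 165) and ILC2 cells at 59.9 CPM (54.2 to 66.0) and 71.6 CPM (59.2 to 85.8). Tubule cells had 12.5 CPM (11.9 to 13.2) and 19.0 CPM (18.0 to 20.1), a ratio of 0.60 (0.49 to 0.71). NK or ILC1 cells nearly lacked the transcript, with 1 UMI in 200 young and 2 UMIs in 214 old cells. These same cells held the highest Ifngr1 level. Old CD8 cells, at 2.22 CPM, were not separated from old NK or ILC1 cells, at 1.49 CPM (0.180 to 5.37), by counting error. Both receptor chains were found together, at 2000 UMIs per cell, in 4.42% (1.45 to 10.0) of young and 0.452% (0.147 to 1.05) of old CD4 cells and in 27 of 275 and 39 of 442 myeloid cells.

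CD4 cells with a UMI of Foxp3, the factor of regulatory T cells, stood apart in the old library. The 73 such cells had Ifng at 51.8 CPM (34.2 to 75.4), against 459 CPM (442 to 476) in the 1066 without one. Ifngr1 was at 629.8 CPM (563 to 702) against 318 CPM (304 to 332), and Ifngr2 at 26.9 CPM (14.7 to 45.1) against 7.45 CPM (5.46 to 9.94). In the young library the 16 such cells had Ifngr2 on the other side, at 15.3 CPM (1.85 to 55.1) from 2 UMIs, against 92.3 CPM (68.5 to 122) in the 101 without one. Their Ifng, at 114 CPM (64.0 to 189) against 161 CPM (129 to 198), and Ifngr1, at 198 CPM (129.5 to 291) against 238 CPM (199 to 283), had overlapping intervals.

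Counted by class, the members past 2-fold were 3 of 9 in CD4 cells (Ifng and Eomes higher, Ifngr2 lower in old mice), where 7.39% of all genes with at least 50 UMIs were. They were 2 of 9 in CD8 cells (Eomes higher, Ifngr2 lower) against 6.10% of genes, and 5 of 9 in double-negative cells (Ifng and Eomes higher, Il12rb1, Il12rb2 and Ifngr2 lower) against 19.5%. Among members that also had at least 50 UMIs, the counts were 3 of 8 in CD4, 1 of 7 in CD8 and 4 of 8 in double-negative cells. With the Trac requirement 4 of 9 were past 2-fold in double-negative cells (Eomes higher, Stat4, Il12rb2 and Ifngr2 lower). With at least 50 UMIs they were 2 of 7, against 14.6% of genes. ILC2 cells had 0 of 9, where 5.65% of 8988 genes were, and tubule cells 2 of 9 (Ifng and Eomes, both at about 1 CPM in old mice) against 8.51%. The median ratio of the 9 members was 0.72 in CD4, 0.27 in CD8, -0.30 in double-negative and 0.12 in NK or ILC1 cells, against 0.09, 0.05, 0.02 and -0.11 over all genes tested. The members thus went both ways. With the members in fixed order, the dot plot of ratios shows Eomes and Ifngr2 at opposite ends in each T class.

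**Figure D3:**
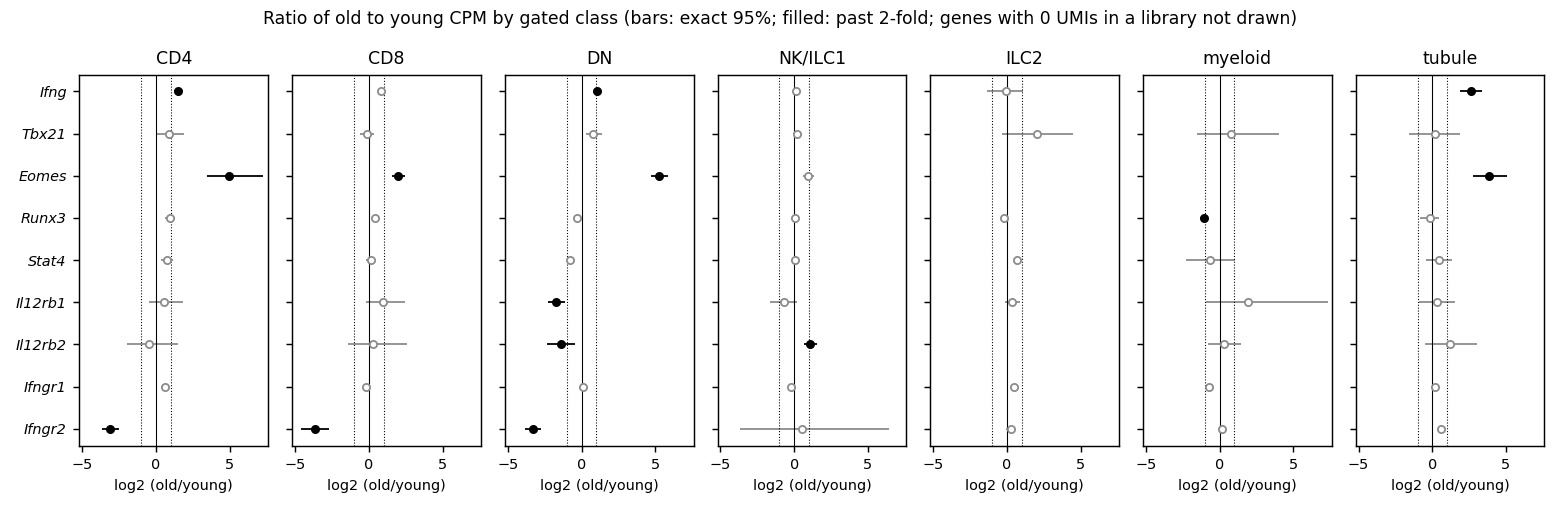
Log2 ratio of old to young CPM (x axis) of the 9 genes (y axis), 1 panel per class, with exact 95% intervals; filled points are past 2-fold, dotted lines mark 2-fold and genes with 0 UMIs in a library are not drawn. Eomes lies at 4.97, 1.99 and 5.23 and Ifngr2 at -3.11, -3.62 and -3.29 in CD4, CD8 and double-negative cells.

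**Figure D4:**
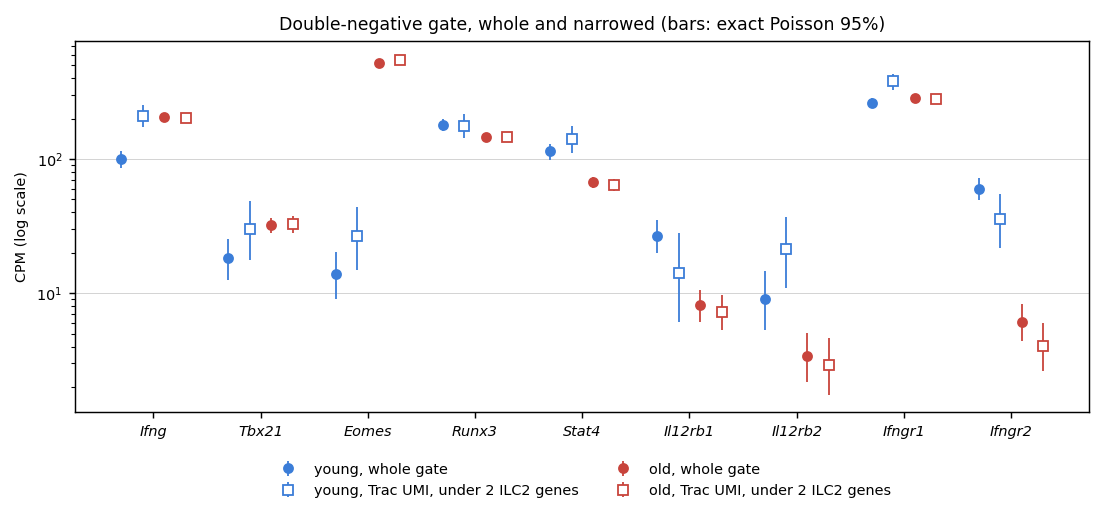
CPM on a log scale (y axis) of the 9 genes (x axis) in the double-negative gate, for the whole gate (filled circles) and for cells with a Trac UMI and fewer than 2 ILC2 genes (open squares), young in blue and old in red, with exact Poisson 95% intervals. The young Ifng level moves from 99.7 to 209 CPM and so reaches the old level, while Eomes and Ifngr2 stay apart between the libraries.

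The cytokines that induce Ifng were mostly under 50 UMIs per class. Of 9 such genes, 3 could be compared in CD4 cells, where 7.39% of all genes were past 2-fold. There Il21 was at 5.94 CPM in young and 47.2 CPM in old mice, a ratio of 2.99 (1.62 to 4.87). In double-negative cells with the Trac requirement Il12a, the IL-12 p35 chain, was at 1.77 CPM (1 UMI) and 11.3 CPM (70 UMIs), a ratio of 2.67 with a lower bound of 0.15. It was the 1 gene of the list with at least 50 UMIs there, beside 14.6% of all genes past 2-fold. In myeloid cells 4 could be compared, beside 8.23% of all genes past 2-fold. Il27 was higher at 22.9 against 7.45 CPM and Il15 lower at 11.4 against 26.1 CPM. ILC2 cells had less Il2 in old mice, 14.7 against 60.6 CPM, beside 5.65% of all genes past 2-fold. In tubule cells none of the 4 comparable genes was past 2-fold, against 8.51% of all genes.

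Among 7 other receptors, Il2rb was higher in old CD4 cells at 230.4 against 101 CPM and Il15ra in old CD8 cells at 29.6 against 9.83 CPM, each the 1 gene of 6 comparable ones past 2-fold, where 7.39% and 6.10% of all genes were. Il18r1, a chain of the IL-18 receptor, was lower in old NK or ILC1 cells at 152 against 357 CPM, a ratio of -1.24 (-1.49 to -0.98). In double-negative cells with the Trac requirement 3 of 6 were lower in old mice, Il18rap at 8.41 against 63.9 CPM, Il18r1 at 27.7 against 81.6 CPM and Il2rb at 110.3 against 245 CPM, and Il21r was higher at 96.6 against 39.0 CPM, beside 14.6% of all genes past 2-fold. Of 10 other transcription factors, Bhlhe40, which supports cytokine production in T cells, was at 554 against 232 CPM in CD4 cells, and Prdm1 and Nfil3 were higher in old NK or ILC1 cells at 72.1 against 30.4 and 90.6 against 41.5 CPM, beside 5.65% of all genes past 2-fold there. Id2 was the 1 factor past 2-fold in double-negative cells with the Trac requirement, lower in old mice at 355 against 784 CPM.

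Genes that interferon-γ induces, several of which type I interferons induce too, differed most in tubule cells. All 7 of the list with at least 50 UMIs there were past 2-fold and higher in old mice, with a median ratio of 5.11 against 0.01 over all genes tested, of which 5.16% were past 2-fold and higher in old mice. Gbp2, a guanylate-binding protein, was at 0.405 CPM in young and 142 CPM in old mice, and Igtp, an immunity-related GTPase, at 5.92 and 204 CPM. Cxcl10, a chemokine for T cells, was at 6.46 and 90.5 CPM, and Ciita, the master activator of MHC class II genes, at 0.639 and 27.4 CPM. In the signaling chain of the same cells Socs1 was at 0.522 and 4.66 CPM and Socs3 at 3.09 and 12.9 CPM, while Jak1, Jak2 and Tyk2 were not past 2-fold. Irf1 was at 2.81 and 90.3 CPM.

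ILC2 cells showed part of this pattern, with 3 of 5 induced genes past 2-fold and higher in old mice, against 2.13% of all genes. Gbp2 was at 15.9 and 86.3 CPM, Igtp at 8.60 and 55.7 CPM, and Cd274, which encodes PD-L1, at 9.91 and 49.5 CPM. Of 7 in myeloid cells, Gbp2 and Cd274 were higher in old mice, at 138 against 58.7 and 154 against 28.9 CPM, and Ciita lower at 43.9 against 115 CPM. Of all genes in myeloid cells, 8.23% were past 2-fold. In CD4 and CD8 cells 5 genes each could be compared. Cd274 was past 2-fold in CD4 cells at 52.0 against 23.8 CPM, where 7.39% of all genes were. Irf8 lay just under the limit there, lower in old mice at 59.6 against 119 CPM. In CD8 cells Gbp2 was past 2-fold at 38.2 against 17.5 CPM, where 6.10% of all genes were. Cd274 lay just under the limit there, at 25.7 against 13.1 CPM. In double-negative cells with the Trac requirement, Cxcl10 was higher in old mice at 22.6 against 8.87 CPM and Irf8 lower at 29.1 against 117 CPM. Of all genes in that gate, 14.6% were past 2-fold. The list had 0 of 4 past 2-fold in NK or ILC1 cells, where 5.65% of all genes were. Socs3 was higher in all 3 old T classes, at 223 against 72.8 CPM in CD4, 94.2 against 47.0 CPM in CD8 and 112 against 40.8 CPM in double-negative cells with the Trac requirement.

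**Figure D5:**
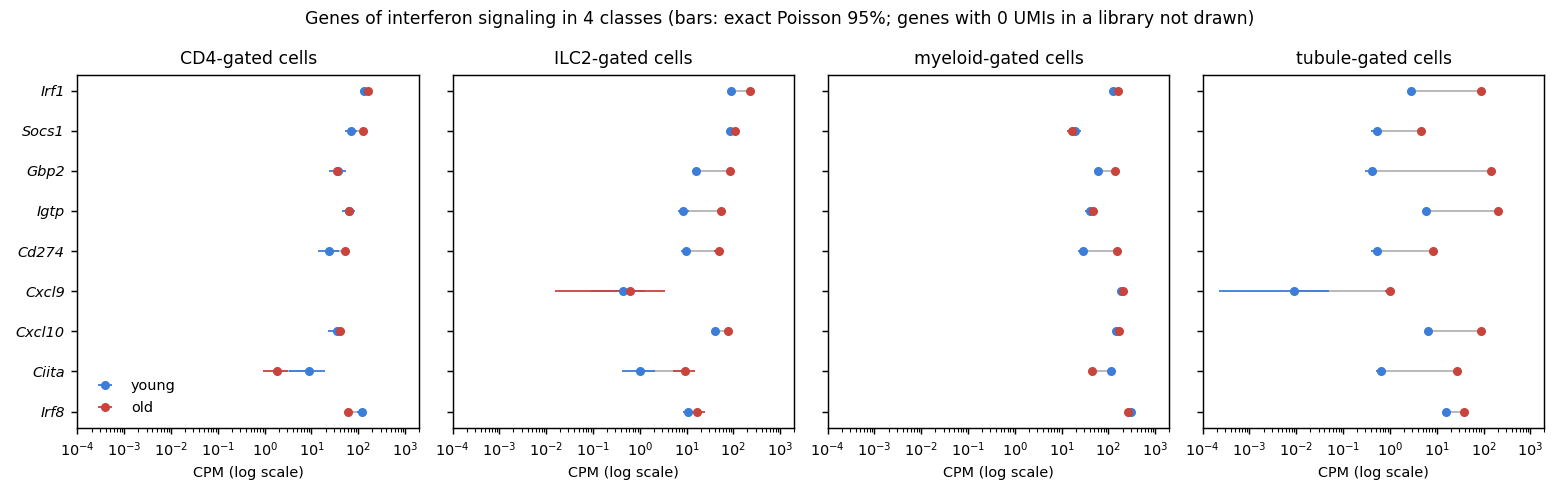
CPM on a log scale (x axis) of 9 genes of interferon signaling (y axis) in CD4, ILC2, myeloid and tubule cells, young in blue and old in red, joined by a line, with exact Poisson 95% intervals. In tubule cells every gene lies further right in old mice, as with Gbp2 at 0.405 and 142 CPM. In CD4 cells the pairs of Irf1, Gbp2, Igtp and Cxcl10 lie close together. There Socs1 and Cd274 lie further right and Irf8 and Ciita further left in old mice.

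Across the 14 class levels (7 classes in 2 libraries), the genes most like Ifng by Pearson correlation of log2(CPM + 1) among 11595 genes were Lck (0.990), Nkg7 (0.984), Gimap7 (0.981), Gm2682 (0.980) and Gimap4 (0.980). Lck is the kinase of the T cell receptor and Nkg7 a granule protein of cytotoxic cells. The genes most like the other members were Samd3 for Tbx21 (0.974), Lamb3 for Eomes (0.959), Arl6ip5 for Runx3 (0.990), Jakmip1 for Stat4 (0.994), Dctn6 for Il12rb1 (0.976), Klrb1f for Il12rb2 (0.962), Lrmp for Ifngr1 (0.970) and P2rx4 for Ifngr2 (0.909). The 14 points share libraries and class boundaries, so these values only describe which genes have the same class pattern.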

How the data were processed

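The deposited UMI counts were made by the authors with Cell Ranger 3.1.0 (matrix headers) on mm10, per gene and barcode, without normalization. Barcodes under 200 genes or above 20% mitochondrial UMIs were dropped, leaving 11429 of 15076 young and 10232 of 12622 old, holding 145647185 and 119218130 UMIs. Cells called doublets by Scrublet (Scanpy 1.11.5), 332 young and 270 old, were kept. Cells meeting more than 1 gate were left out of the classes. CPM, exact Poisson and Clopper-Pearson 95% intervals and binomial intervals of ratios were computed with Python 3.11.15, NumPy 2.4.6, SciPy 1.17.1 and pandas 2.3.3, and figures with Matplotlib 3.10.9. A gene with 0 UMIs was set to 3 counts. Thinning used seed 7. The share of genes past 2-fold covers those with at least 50 UMIs in a class over both libraries. On simulated CD8 sums with 8826 genes, 97.5% of 200 genes changed 4-fold and 1.02% of unchanged genes were past 2-fold. These sums were drawn with counting error only, so the 2 percentages leave out variation between cells, mice and libraries.

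Named were all members, the list genes with the largest ratios, and the genes most like each member (at least 500 UMIs, not used by a gate). The members and lists were chosen with earlier results of these data known. Positions came from GENCODE M21. Alternatives were other limits on cells, doublets removed, stricter gates, deep cells, sex-linked sets, the mean of cells, totals without abundant genes, shared barcodes left out, other depths, UMI minimums and pseudocounts, and, chosen after seeing the data, the Trac requirement. Flow cytometry and histology were not analysed here, and 1 gene of the lists is not reported here.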

Additional observations from a re-analysis of the deposited data

Results flagged for a closer look

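Members whose ratio of old to young CPM pointed in opposite directions in different classes, both with intervals that leave out 0, were marked for a second look. The difference between classes was not tested, since each age is 1 library. For Ifngr2 the log2 ratio was -3.62 in CD8 and 0.60 in tubule cells, and for Il12rb2 it was 1.09 in NK or ILC1 and -1.42 in double-negative cells. For Stat4 it was 0.72 in CD4 and -0.76 in double-negative cells, for Runx3 0.93 in CD4 and -1.09 in myeloid cells, and for Ifngr1 0.57 in CD4 and -0.70 in myeloid cells.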

How the results depend on the processing

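No paired analysis was possible because each age is 1 library. Of the 14 ratios past 2-fold, 1 changed its sign in 150 alternatives, to a value whose interval held 0, and 7 alternatives fell under 2-fold. The Ifng ratio in double-negative cells (1.04) was -0.05 with the Trac requirement, 0.65 by the mean of cells, 0.74 with stricter gates, 1.82 in cells with at least 5000 UMIs and 1.32 in Xist cells, and 0.91 in Y-linked cells. In CD4 cells the Ifng ratio was 1.08 by the mean of cells and 2.08 in Xist cells, and in CD8 cells 1.02 in cells with at least 5000 UMIs and 1.86 in Xist cells. The Eomes ratio was 2.44 in Xist CD4 cells, where the 0 young UMIs were set to 3, and 2.51 by the mean of CD8 cells. In double-negative cells it was 4.31 in Y-linked cells, 6.49 in Xist cells and 4.37 with the Trac requirement. The Ifngr2 ratio was -4.59 in Xist CD4 cells, and -2.33 in Y-linked and -4.53 in Xist double-negative cells. The causes were not tested, beyond the ILC2 genes counted in the young double-negative gate. The CD4 ratios rest on 117 young cells.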
